A study of Mus musculus with 3 samples.

Results

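The genes described here are 10 histone acetyltransferases and close relatives outside the KAT8 complexes: the coactivators Ep300 and Crebbp, the GCN5 family members Kat2a and Kat2b, the MYST family members Kat5, Kat6a, Kat6b and Kat7, the scaffold gene Trrap and the B-type acetyltransferase gene Hat1. They were chosen by name, and gene symbols were matched to the probes of the table that the authors processed. Of the 10 genes, 8 had a named probe, among 9678 genes with one in the whole series, and these 8 were read by 12 probes: 4 genes by 1 probe and 4 by 2. Kat6a and Crebbp had no named probe, so no value is given for them. The absence of a named probe does not tell a gene that was off from one that these arrays could not read.

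RNA came from a mouse line of embryonic stem (ES) cells, OS25, and was hybridised to 3 Illumina BeadArrays, 1 for each biological replicate. All 3 samples form 1 group, undifferentiated ES cells kept in serum medium with human recombinant leukaemia inhibitory factor and hygromycin, with no other genotype or treatment given in the labels. The arrays accompany a profile of acetylation at lysine 16 of histone H4 in these cells. With no second group, the values allow no test between conditions, and the spread between the 3 arrays is the only error given for a level. That spread does not separate differences between samples from measurement noise, and it leaves out differences between probes of a gene.

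Histone acetyltransferases move an acetyl group from acetyl-CoA to lysines of histone tails, which loosens the hold of DNA and offers a docking site to bromodomain proteins. p300 and CBP acetylate histones at enhancers, the GCN5 family acts within the SAGA and ATAC coactivator complexes, the MYST enzymes each work with dedicated scaffold proteins, and HAT1 acetylates newly made histone H4 before it is put into chromatin. In mouse ES cells the TIP60 complex, which holds the Kat5 product, is known for a role in maintaining self-renewal.

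A probe was called detected on an array where its detection p-value, which sets it against the negative control beads of that array, was under 0.01, and a gene where any of its probes was detected on all 3 arrays. In intensity, the linear brightness of a probe's beads before background correction, the dimmest probe that met this read 99.2, 96.6 and 92.6 on replicates 1, 2 and 3. Across detected probes, Pearson's correlation was 0.990 between replicates 2 and 3, and 0.949 and 0.951 between replicate 1 and each of them, so replicate 1 stood apart. Results on spread are therefore given with and without it. The markers did not settle the label. Of 12 ES cell markers 8 had a named probe. Detected were 5 of these (62.5%, against 82.2% of all genes with a named probe), namely Klf2, Klf4, Klf5, Tbx3 and Lefty1. Zfp42, Tfcp2l1 and Fbxo15 were not detected on all 3 arrays. Pou5f1, Nanog, Sox2 and Esrrb had no named probe and are not counted in the 62.5%. Names were given only to probes of the processed table, and no probe outside it was detected on any array. Any probe of Pou5f1, Nanog, Sox2 or Esrrb outside that table was thus undetected. Of 10 fibroblast markers 8 had a named probe and 6 of these were detected (75%), including Col1a1, Fn1 and Vim, and the other 2, Col3a1 and Dcn, were above background on replicates 1 and 2 alone. The summed intensity of the 8 named ES cell markers ran from 1835 to 2181 over the arrays, and that of the 8 named fibroblast markers from 18928 to 23323. These sums include background and come from different probes, so one is not ranked against the other. Single fibroblast markers moved in opposite directions on replicate 1. In normalised log2 intensity Dcn was at 12.28 there against 6.77 and 5.42 on replicates 2 and 3, and Pdgfra at 9.59 against 6.07 and 5.84. Thy1 was at 6.81 against 9.85 and 9.49, and Vim at 12.19 against 13.43 and 13.40. Detected ES cell markers moved on replicate 1 as well. Klf4 was at 6.48 there against 8.08 and 7.86, Klf5 at 8.59 against 9.92 and 9.70, and Lefty1 at 5.52 against 6.25 and 6.02. Tbx3 was higher there, at 8.32 against 7.83 and 8.02, and Klf2 lay between the other arrays. The part of any fibroblasts in the levels below was not tested, and in bulk RNA fewer expressing cells and less RNA per cell cannot be told apart.

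Of the 8 acetyltransferase genes with a named probe, 7 were detected on all 3 arrays (87.5%), and Trrap was the exception. That share was close to the 82.2% of all genes with a named probe. Both are shares of genes named in the processed table, and no probe outside that table was detected on any array. Neither is therefore a share of genes at large, and Kat6a and Crebbp stand outside the count. Levels are given below as normalised log2 intensity (background-corrected and quantile-normalised), on which 1 unit is a doubling. Since probes differ in how well they bind, no level of one gene is ranked against that of another.

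Ep300 encodes p300, an acetyltransferase that transcription factors recruit to enhancers. Its first probe read an intensity of 720.0, 522.5 and 429.9 on replicates 1, 2 and 3, all with a detection p of 0. The normalised log2 level was 9.12, 8.92 and 8.81 on the 3 arrays, with a mean of 8.95 ± 0.16 (SD, n = 3). The arrays thus lay within 0.31 log2 units, a 1.24-fold range, with replicate 1 the highest. A second probe, annotated to a cDNA clone of Ep300, lay close to background at 5.80, 6.11 and 5.59 (mean 5.83 ± 0.26, SD, n = 3), with a detection p of 0, 0 and 0.00641. On it replicate 2 was the highest array, so the probes of Ep300 disagreed on which array was the highest.

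Kat2a encodes GCN5, the catalytic subunit of SAGA and ATAC. Its single probe read an intensity of 767.3, 407.7 and 434.8 on replicates 1, 2 and 3, and a log2 level of 9.21, 8.51 and 8.84 (mean 8.85 ± 0.35, SD, n = 3). Replicate 1 was the highest and replicate 2 the lowest, and the 1.63-fold range was the widest of the 7 detected members. Kat2b encodes PCAF, the paralogue that takes the place of GCN5 in the same complexes. Its first probe read 153.4, 130.4 and 116.1 in intensity, and 6.33, 6.26 and 6.22 in log2 level (mean 6.27 ± 0.05, SD, n = 3). That was the narrowest range of the 7, at 1.08-fold. The second Kat2b probe kept the same order of arrays, at 6.07, 5.92 and 5.86 (mean 5.95 ± 0.11, SD, n = 3), and was detected on each.

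Among the MYST enzymes, Kat5 encodes TIP60, which acetylates histones H4 and H2A and takes part in the response to DNA breaks. Its first probe read an intensity of 339.6, 216.6 and 244.6 and a log2 level of 7.87, 7.38 and 7.84 on replicates 1, 2 and 3 (mean 7.70 ± 0.28, SD, n = 3). Replicates 1 and 3 lay together and replicate 2 lay below them, a 1.41-fold range. The second Kat5 probe was above background on replicate 1 alone, with a detection p of 0.00214, 0.0491 and 0.0470 on the 3 arrays, so the detection of Kat5 rests on 1 of its 2 probes.

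Kat6b encodes MORF, an H3 acetyltransferase held by BRPF scaffold proteins. Its probe read an intensity of 459.8, 376.2 and 293.1 and a log2 level of 8.40, 8.37 and 8.16 (mean 8.31 ± 0.13, SD, n = 3). Replicates 1 and 2 were close and replicate 3 was lower by 0.22 log2 units than replicate 2. Kat7 encodes HBO1, which acetylates H3 or H4 depending on its scaffold. Its first probe read an intensity of 742.6, 585.3 and 487.8 and a log2 level of 9.17, 9.10 and 9.01 (mean 9.09 ± 0.08, SD, n = 3), a range of 1.11-fold. A second probe, annotated to a cDNA clone of Kat7, was detected on all 3 arrays and behaved otherwise, at 6.18, 5.39 and 5.90 (mean 5.82 ± 0.40, SD, n = 3), with replicate 2 the lowest and a range of 1.73-fold. On replicate 2 that dim probe passed detection narrowly, at a p of 0.00855.

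Trrap encodes a large scaffold protein without enzyme activity of its own, shared by SAGA and the TIP60 complex. Its single probe read an intensity of 106.2, 83.7 and 79.7 on replicates 1, 2 and 3, with a detection p of 0.00321, 0.112 and 0.0940. It was above background on replicate 1 (log2 level 5.42) and not on replicates 2 and 3, so no mean is given for it. Hat1 encodes the enzyme that acetylates free histone H4. Its single probe read an intensity of 6201, 5067 and 5659 and a log2 level of 12.42, 12.34 and 12.60 (mean 12.45 ± 0.13, SD, n = 3). Replicate 3 was the highest array for Hat1 after normalisation, unlike the other 6 detected members, although replicate 1 had the highest intensity before it.

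**Figure D1:**
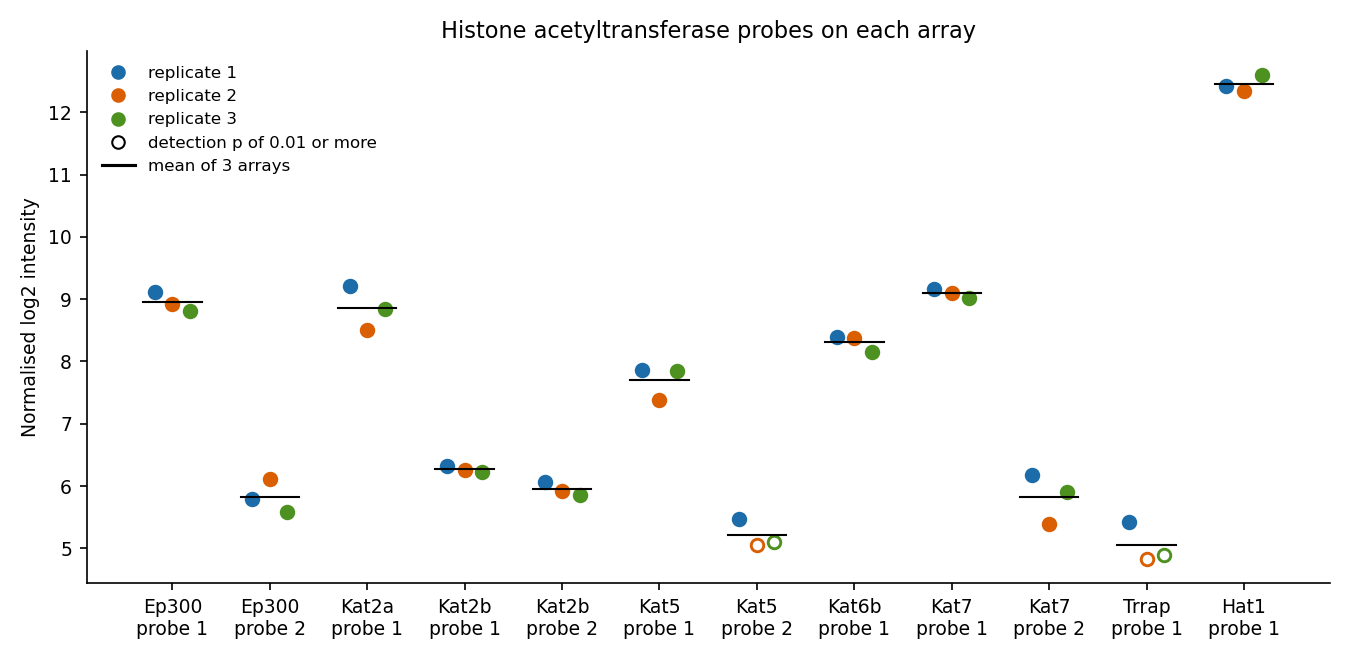
Normalised log2 intensity (vertical axis) of each of the 12 probes of the 8 genes with a named probe. Points are single arrays coloured by replicate, open where the detection p was 0.01 or more, and bars are means of the 3 arrays. All open points belong to Trrap and to the second probe of Kat5, on replicates 2 and 3.

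None of the 7 detected members spanned over 2-fold between the arrays, where 10.1% of all detected genes did. Their median SD was 0.13 log2 units against 0.21 for all 7955 detected genes, and their median range 0.26 against 0.41. Kat2a and Kat5 had ranges above that median, and Kat2b, Kat6b, Kat7, Ep300 and Hat1 below it. Placed among all detected genes, the range of Kat2a stood at percentile 78.3, that of Kat5 at 59.9, and those of Kat7 and Kat2b at 11.9 and 5.95. How the members compared with all detected genes depended on replicate 1. Without it their median SD was 0.15 and that of all detected genes 0.10, so the order turned, and 0.453% of all detected genes and none of the members spanned over 2-fold. Without replicate 3 the members' median SD was 0.06 and that of all detected genes 0.22. Between replicates 2 and 3, Kat5 differed by 0.46 log2 units, at percentile 94.8 of the detected genes, and Kat2a by 0.33 (percentile 86.7). Hat1 differed by 0.26 (percentile 78.4) and Kat6b by 0.22 (percentile 70.6), while Ep300, Kat7 and Kat2b differed by 0.11, 0.08 and 0.04, below the median of 0.14 for all detected genes.

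**Figure D2:**
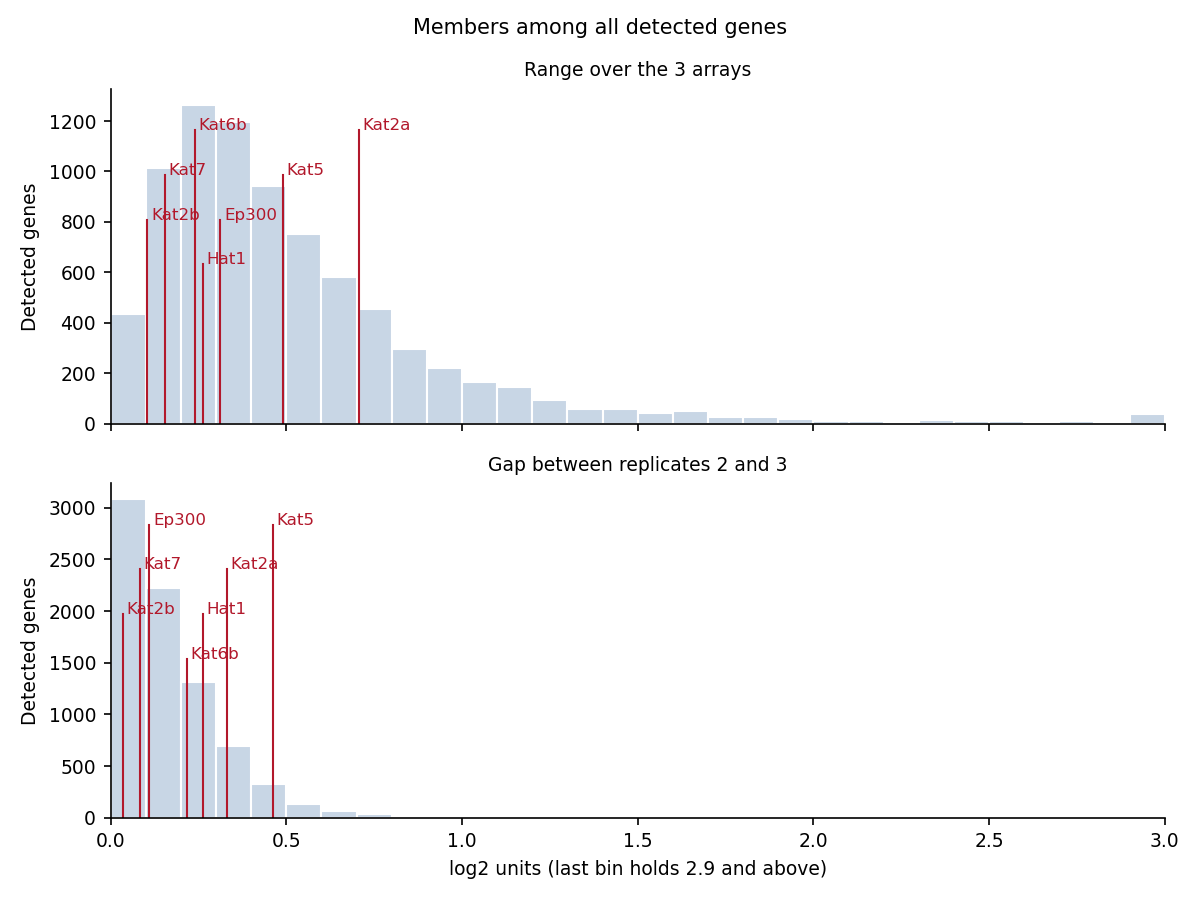
Number of detected genes (vertical axes) by their range over the 3 arrays (top) and by their gap between replicates 2 and 3 (bottom), in log2 units, with the 7 detected members as red lines. Kat2a is farthest right in the top panel (0.71) and Kat5 in the bottom one (0.46).

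In 6 of the 7 detected members replicate 1 was the highest array, where this held for 43.3% of all detected genes. It is also the array on which the fibroblast markers Dcn and Pdgfra were high and Thy1 and Vim low. The ES cell markers Klf4, Klf5 and Lefty1 were low there too, and Tbx3 was high. The part of these differences in this count was not tested. On replicates 1, 2 and 3 the 7 deviated from their own means by a median of 0.09, −0.03 and −0.05 log2 units. The lowest array was replicate 2 for Kat2a, Kat5 and Hat1 (26% of all detected genes) and replicate 3 for Kat2b, Kat6b, Kat7 and Ep300 (30.6%). Replicates 2 and 3 were closer to each other than either was to replicate 1 in 3 of the 7 members, against 63.7% of all detected genes. Without normalisation between arrays replicate 1 was the highest in all 7, when the median of all detected genes itself stood at 0.26, −0.04 and −0.22 on replicates 1, 2 and 3. Once each array was centred on that median, the count was again 6 of 7, but replicate 2 was then the lowest array in 2 members in place of 3, since Hat1 was lowest on replicate 1.

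**Figure D3:**
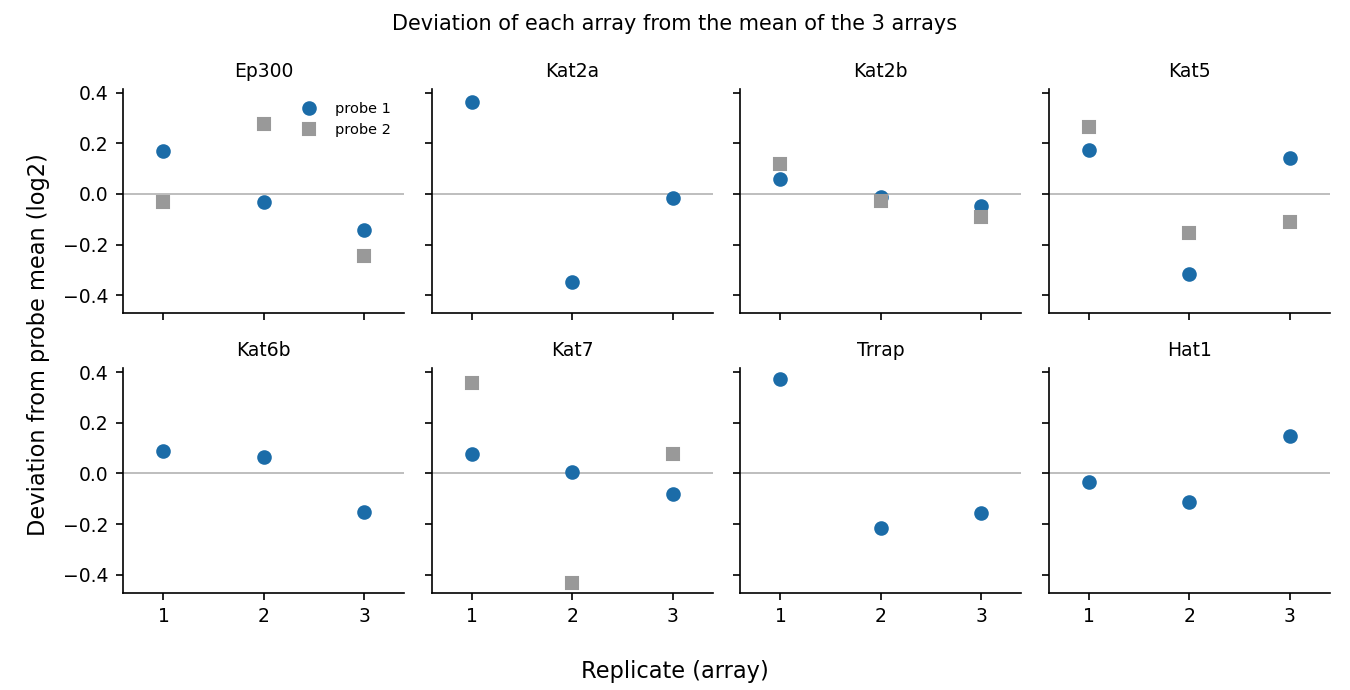
Deviation of each array from the probe's mean over 3 arrays (vertical axes, log2 units) by replicate (horizontal axes) for the 8 genes with a named probe, with first probes as blue circles and second probes as grey squares. Kat2a and the first probe of Kat5 are lowest on replicate 2, and the second probes of Ep300 and Kat7 depart from the first.

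Replicate 2 was the lowest array for Kat2a, Kat5 and Hat1, as for 26% of all detected genes, and Hat1 left this group when the unnormalised arrays were centred. Their promoters are set side by side as a description. A link between motifs and the order of the arrays was not tested. RefSeq promoter windows (GRCm38.p6) of 300 bases, 250 before a transcript start and 50 after it, were present for 9 of the 10 genes, 12 windows in all. Kat6a had no entry. Each window was searched on both strands for 5 motifs: the ETS motif CCGGAAG, the CCAAT box, the GC box GGGCGG, the E-box CACGTG and the cyclic AMP response element TGACGTCA. Below, capitals mark matches on either strand, and no matches in the 3 windows shown overlapped. The windows are at chr11:100712418-100712717, minus strand, for Kat2a, at chr19:5610045-5610344, minus strand, for the Kat5 start with the ETS matches, and at chr2:71389010-71389309, plus strand, for Hat1.
Kat2a: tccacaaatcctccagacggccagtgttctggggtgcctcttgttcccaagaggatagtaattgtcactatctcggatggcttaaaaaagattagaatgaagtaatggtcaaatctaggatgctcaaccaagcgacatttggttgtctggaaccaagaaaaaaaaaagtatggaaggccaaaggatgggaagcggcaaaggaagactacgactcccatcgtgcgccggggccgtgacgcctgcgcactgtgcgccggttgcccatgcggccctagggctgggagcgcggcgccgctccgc
Kat5: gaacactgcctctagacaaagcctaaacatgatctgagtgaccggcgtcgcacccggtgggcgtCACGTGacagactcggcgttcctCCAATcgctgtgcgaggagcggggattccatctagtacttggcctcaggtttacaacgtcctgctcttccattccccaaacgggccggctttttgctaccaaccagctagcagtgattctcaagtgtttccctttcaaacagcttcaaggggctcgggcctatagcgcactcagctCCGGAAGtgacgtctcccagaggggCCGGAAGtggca
Hat1: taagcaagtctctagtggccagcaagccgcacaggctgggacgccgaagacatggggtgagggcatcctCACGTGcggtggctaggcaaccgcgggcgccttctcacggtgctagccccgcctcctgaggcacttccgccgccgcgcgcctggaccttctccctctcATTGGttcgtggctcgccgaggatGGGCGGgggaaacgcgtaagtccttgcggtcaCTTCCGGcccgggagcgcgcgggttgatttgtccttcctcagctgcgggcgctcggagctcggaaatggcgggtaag
The Kat2a window held none of the 5 motifs, so no motif searched was common to the 3 genes. The Kat5 window shown and the Hat1 window both held an ETS motif, a CCAAT and an E-box. The other Kat5 window, at chr19:5609695-5609994, held none of these 3 motifs but did hold the GC box. The 3 motifs were present in 8.86%, 37.4% and 7.15% of all 32851 windows and in 19.3%, 38.3% and 10.6% of the 8409 windows of detected genes. Kat7, whose lowest array was replicate 3, also held an ETS motif and CCAAT. The GC box was found in 7 of the 12 member windows (58.3%), at Crebbp, Ep300, Hat1, Kat5, Kat6b and Trrap, and in 66.0% of the windows of detected genes. None of the 12 member windows held the exact cyclic AMP response element, which occurred in 1.79% of all windows. The member windows held a median of 29.5 CpG dinucleotides, from 6 at the second start of Kat2b to 49 at Crebbp, against a median of 21 in windows of detected genes. The ratio of observed to expected CpG was 0.79 in the members and 0.78 in detected genes, so that the members differed little from them once base composition was counted. A match is a description of these letters only.

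Transcripts for the proteins that work with these enzymes were mostly detected too, where they had a named probe. Of 66 partner genes in 6 lists, 53 had a named probe and 48 of these (90.6%) were detected, against 82.2% of all named genes. Both shares leave out genes without a named probe, 13 in these lists, which may have been off or unreadable. Their median SD was 0.22 log2 units against 0.21 for all detected genes, and 1 of the 48 spanned over 2-fold, where 10.1% of all detected genes did. Without replicate 1 their median SD was 0.09 against 0.10, and none of the 48 spanned over 2-fold, where 0.453% of all detected genes did.

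In the SAGA and ATAC list, 16 of the 17 named genes were detected. Adaptor genes whose products hold GCN5 or PCAF were among them, with Tada3 at 7.47 ± 0.22 and Tada2a at 7.85 ± 0.14 (SD, n = 3 each). The SAGA subunit gene Tada1 was at 7.55 ± 0.29 (SD, n = 3). Sgf29, a reader of methylated H3K4, was at 8.08 ± 0.31 (SD, n = 3). Mbip, an ATAC subunit, missed detection on replicate 3 alone (detection p of 0.00107, 0.00427 and 0.0118). Counting a gene only where none of its probes missed detection left 9 of the 17. In the TIP60 list all 15 genes with a named probe were detected, with the ATPase gene Ep400 at 10.22 ± 0.14, the scaffold gene Epc1 at 8.63 ± 0.37, Dmap1 at 9.20 ± 0.23 and the helicase gene Ruvbl1 at 10.50 ± 0.15 (SD, n = 3 each). These 15 were each detected by at least 1 probe, 13 when every probe had to be detected and 14 at a detection p under 0.001. Trrap, which belongs to the same complex and was read by a single probe, was above background on replicate 1 alone.

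In the MOZ/MORF and HBO1 list 5 of the 7 named genes were detected. Brpf1, which holds MOZ and MORF, was at 8.52 ± 0.09 (SD, n = 3). Jade1, a scaffold that directs HBO1 to histone H4, was at 8.83 on replicate 1 and at 10.89 and 10.77 on replicates 2 and 3, a 4.18-fold range. It was the partner gene that spanned over 2-fold, with 1 of its 2 probes detected, and replicate 1 was the low array: between replicates 2 and 3 it differed by 0.12 log2 units. Of the probes of Kat7, the enzyme of that complex, the first had a range of 0.15 log2 units over the 3 arrays and the dim second one a range of 0.79, with replicate 1 the highest on both. The other scaffold genes Jade2 (detection p of 0.00534, 0.0278 and 0.0972) and Jade3 (0.172, 0.0588 and 0.00641) were each above background on a single array, replicate 1 for Jade2 and replicate 3 for Jade3.

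In the p300/CBP list 4 of the 6 named genes were detected. Cited2, which binds p300 and CBP and limits their recruitment by hypoxia-inducible factor, was at 11.13 ± 0.14, the arginine methyltransferase gene Carm1 at 7.92 ± 0.25 and the CREB coactivator gene Crtc1 at 5.90 ± 0.39 (SD, n = 3 each). The steroid receptor coactivator gene Ncoa3 missed detection on replicate 3 (detection p of 0.00855, 0.00534 and 0.0278) and Crtc2 on replicates 1 and 2 (0.0342, 0.0128 and 0). Ncoa1, Ncoa2, Cited1, Cited4 and Creb1 had no named probe. All 6 genes of the HAT1 list were detected: Rbbp7, the histone-binding partner of HAT1, at 10.77 ± 0.32, its paralogue Rbbp4 at 8.99 ± 0.23, and the histone chaperone genes Nasp at 10.29 ± 0.22 and Asf1a at 6.05 ± 0.17 (SD, n = 3 each). The 3 genes that supply acetyl-CoA outside mitochondria were detected as well, with the citrate lyase gene Acly at 12.03 ± 0.18, the acetyl-CoA synthetase gene Acss2 at 7.52 ± 0.23 and the citrate carrier gene Slc25a1 at 8.77 ± 0.21 (SD, n = 3 each).

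**Figure D4:**
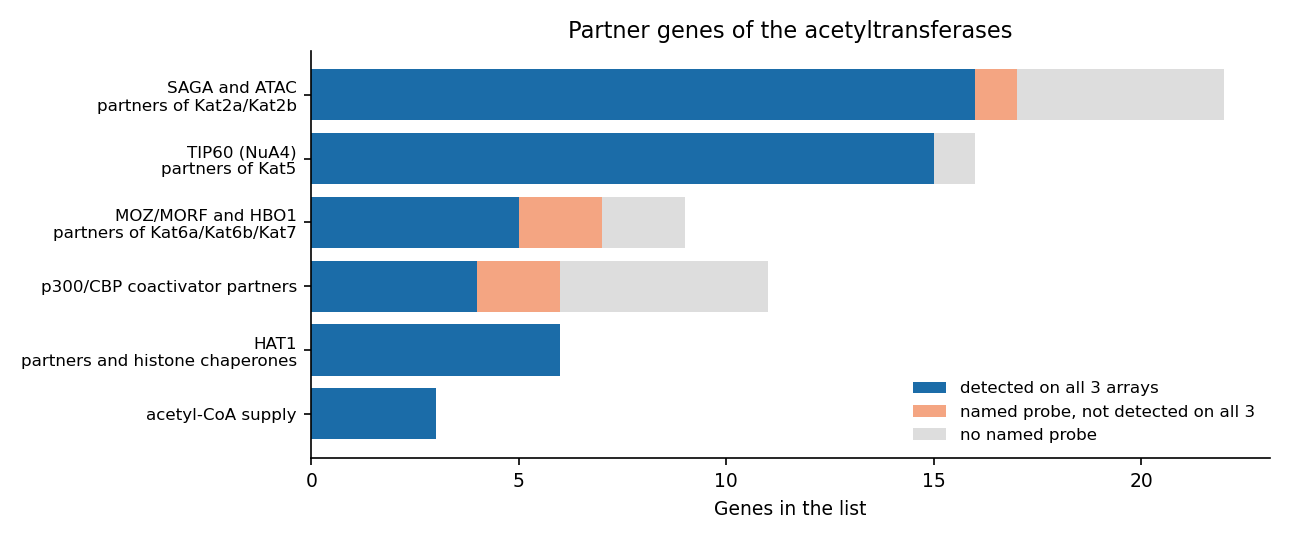
Number of genes (horizontal axis) in each partner list that were detected on all 3 arrays (blue), were named but missed detection on at least 1 array (orange), or had no named probe (grey). The TIP60 list has 15 blue genes of 16 and the p300/CBP list 4 of 11.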

How the data were processed

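Per the file headers, the deposited non-normalised table pairs each intensity with a detection p-value for 45281 probes on each of the 3 arrays. The authors' processed table holds log2 intensities of 17754 probes. Its sorted columns are equal to within 0.000361, as after quantile normalisation. Limma is named in the submitters' processing notes; no version or probe filter is stated in those notes as used here. None of the probes outside the processed table was under a detection p of 0.01 on any array.

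Probes were named through the platform annotation (15045 with 1 gene; 5 listing several left out) and Entrez identifiers in RefSeq (15026 matched; the others kept the annotation's symbol). Levels came from neqc in limma 3.58.1 (R 4.3.3), which applied normexp background correction (offset 16, controls inferred from detection p-values), normalised by quantiles and took log2. A gene's level is that of its probe with the highest mean. Python 3.11.15, pandas 2.3.3 and numpy 2.4.6 were used.

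The members, lists and markers were chosen with earlier results of these data known. Named partner genes were the first 4 with a named probe in each list, undetected ones where there were 5 or fewer, and detected ones over 2-fold; the genes said to have no named probe stand outside this rule. No similarity of pattern across samples was computed, since there were 3 arrays. That number limits the precision. Whether the biological replicates were separate cultures is not stated in the labels. The steps were tested on simulated data.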

Additional observations from a re-analysis of the deposited data

How the results depend on the processing

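No paired analysis was possible because the series has 1 group. The count of 7 detected members was also found at a detection p under 0.001. A detection p under 0.05 or leaving out any 1 replicate could only add members. The count stayed at 7 there because Trrap, the only other member with a named probe, missed 0.05 on both replicates 2 and 3. It was 8, Trrap included, with detection on at least 1 array. Where every probe had to be detected the count was 6, since Kat5 then dropped out. Under that last rule 9 SAGA and ATAC partners were detected in place of 16, by construction of the rule. Without normalisation between arrays 1 member spanned over 2-fold (Kat2a, a range of 1.02 log2 units) and the median SD of the members was 0.374, with all detected genes at 0.308. With each array then centred on the median of detected genes, an alternative chosen after seeing the data, the count of such members was 0 and their median SD 0.155. With 1 replicate left out, the median SD of the members ran from 0.0566 (without replicate 3) to 0.154 (without replicate 1). The mean level of a member moved by more than its SD in 5 of 8 genes with quantile normalisation alone. It did so in 4 of 8 in the authors' processed values, and neither of these settings subtracts background. When probes were averaged per gene the mean level did so in all 4 genes with 2 probes: Kat2b, Kat5, Kat7 and Ep300. Averaging cannot move the 4 genes with 1 probe. Leaving out 1 of 3 arrays cannot move a mean by more than the SD, so that setting was no check of the levels. Kat2a stayed the member with the widest range under each of 4 other scalings. Kat2b stayed the narrowest in all of them but the arrays without normalisation, where Hat1 was the narrowest (0.295 log2 units). Probes near background, both of Kat2b, the second ones of Ep300, Kat5 and Kat7 and that of Trrap, limit what can be said of those genes at this signal.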
